A study of Mus musculus with 8 samples.

Results

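A set of 30 genes of neutrophil granules and neutrophil maturation was followed in long bones of Hyp and wild-type (WT) mice. The genes were chosen by symbol, from all probe sets annotated to exactly 1 of these symbols, with the probe sets of a gene averaged on each array. Of the 30 genes 26 were measured, among 18193 genes in all, and 24 of the 26 had 1 probe set. Cebpe, Fpr1, Ly6g and Retnlg had no probe set annotated to them alone and are not analysed here.

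Total RNA was taken from the tibia and femur of males at 12 days of age and hybridised to 8 microarrays. The mutant genotype was Hyp, on the C57BL/6 background, with 4 arrays, in which the 3′ end of the X-linked gene Phex is deleted. The control genotype was WT, with 4 arrays, for which the labels give wild type as the strain and no further background. Both genotypes had the same sex, age and tissue, and each RNA was pooled from 2 bone samples of 1 genotype. The deletion is present in all cells of the animal, not only in bone. The labels do not say from how many animals an RNA came, and the p-values reflect how far these RNAs spread, which may be technical.

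Neutrophils are short-lived phagocytes made in large numbers in bone marrow. As their precursors mature they fill successive kinds of granule: primary (azurophil) granules with serine proteases and myeloperoxidase come first, secondary (specific) granules with lactoferrin and cathelicidin follow, and tertiary (gelatinase) granules come last. The transcription factors C/EBPα, C/EBPε and Gfi1 govern these steps, granulocyte colony-stimulating factor drives the output of cells, and the mature cell carries chemokine and formyl peptide receptors and an oxidase that makes superoxide. Granule contents were assigned here mostly from what is known of human neutrophils. Long bones include their marrow, and in such whole tissue a difference in the number of cells of a type and a difference in RNA per cell cannot be told apart.

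The values were on a log2 scale, with the median of each probe set over the 8 arrays at 0. Such values tell how arrays differ and give neither a level of expression nor its detection. Whether neutrophil RNA or the markers of bone cells were present at a given level could therefore not be checked. The genotype check was clear: both probe sets of Phex were lower on every Hyp array than on every WT array, where one fell by 8.31 ± 0.21 and the other fell by 5.03 ± 0.20 on the log2 scale (SE, n = 4 per group). The first principal component of the gene means (49.3% of the variance) separated the genotypes, and the next (17.4%) placed WT replicate 3 at -18.94 with the other arrays between -5.11 and 9.88. A list of 10 skeletal muscle genes averaged between -1.65 (replicate 2) and 0.15 on the Hyp arrays and between -0.77 and 2.24 (replicate 3) on the WT arrays, and none of the 10 genes passed the test (limma; 1 was lower at an unadjusted p under 0.05). Results are therefore also given without Hyp replicate 2 and WT replicate 3.

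The comparison of Hyp with WT addresses which genes differ in bone that lacks a working Phex. Of the 26 measured neutrophil genes, 6 were higher in Hyp bone and 0 were lower (limma, Benjamini-Hochberg adjusted p under 0.05 over all 18193 genes). At an unadjusted p under 0.05 in limma, 10 were higher and 0 lower, for which the share of all genes is not given here. The 6 were Cebpa, Padi4, Il1b, Csf3r, Hp and Cyba, with increases between 0.23 and 0.45 on the log2 scale. They made up 23.1% of the measured members, beside 6.54% of all genes called higher and 6.32% called lower. Because the members were chosen with earlier results of these data known, such shares describe the list and are not a test of it. The median difference was 0.13 over the 26 members and 0.02 over all genes, and 24 of the 26 differences were above 0, beside 58.0% of all genes. In 7 members every Hyp array lay above every WT array, which was so for 10.3% of all genes, and in 0 members every Hyp array lay below, which was so for 8.89% of all genes. All differences were small: Cebpa, the most changed, was 1.36-fold higher.

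The count of 6 rested partly on single arrays. Without WT replicate 1 the count was 2 (Cebpa and Csf3r), without Hyp replicate 4 it was 3 (Cebpa, Csf3r and Il1b), and without any other single array it lay between 4 and 7. Calls over all genes fell too. From 1190 genes called higher on all arrays, 605 remained without WT replicate 1 and 897 without Hyp replicate 4. Without both Hyp replicate 2 and WT replicate 3, 1096 genes were called higher. With both Hyp replicate 2 and WT replicate 3 left out, 5 members were higher: Cebpa, Hp and Padi4 as before, and Fpr2 and Ncf4 in place of Csf3r, Il1b and Cyba. The 29 probe sets of the members were also tested among all 45037 probe sets (limma, adjusted p under 0.05). Of the 29, 4 were higher, those of Cebpa, Csf3r, Padi4 and Il1b, and 0 were lower. Of all probe sets 3.22% were called higher and 3.91% lower. At an unadjusted p under 0.05, 10 of the 29 were higher and 0 lower, for which the share of all probe sets is not given here.

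**Figure D1:**
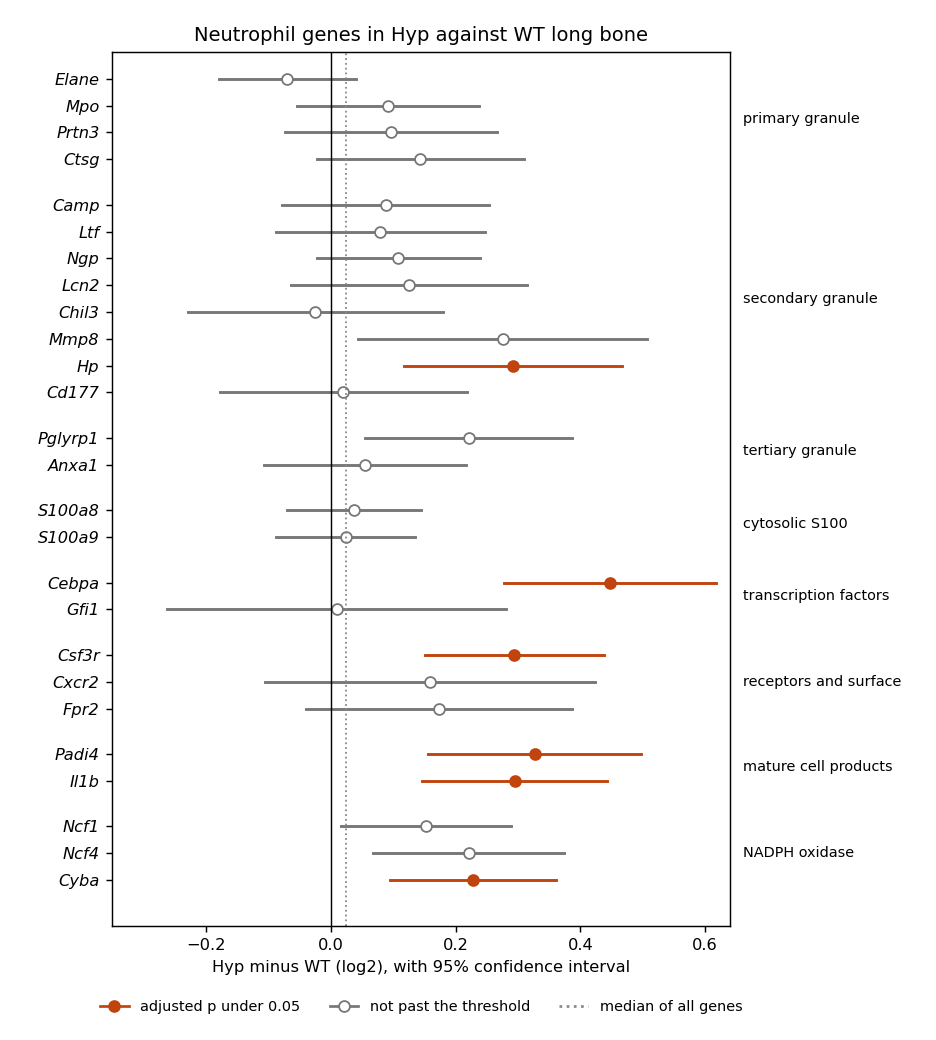
Difference between Hyp and WT (log2, horizontal axis) for each of the 26 measured neutrophil genes, grouped by role, with its 95% confidence interval from the fit over all genes (4 arrays per genotype). The intervals of the 6 filled points lie above 0 and reach from 0.10 (Cyba) to 0.62 (Cebpa), while those of the primary granule and S100 genes all include 0. Mmp8, Pglyrp1, Ncf1 and Ncf4 were not called after adjustment, but their intervals lie above 0 too.

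Primary granule genes did not pass the test. All 4 were measured: Mpo (myeloperoxidase, which makes hypochlorous acid) and the serine proteases Elane (neutrophil elastase), Prtn3 (proteinase 3) and Ctsg (cathepsin G). None passed the threshold in either direction, nor had any an unadjusted p under 0.05 in limma, which does not show that the genotypes were alike. Their differences ran from -0.07 to 0.14 with a median of 0.09, and the 95% intervals together covered -0.18 to 0.31. Mpo had 0.02, 0.24, -0.03 and 0.12 on Hyp replicates 1 to 4, against -0.02, -0.04, 0.10 and -0.05 on WT replicates 1 to 4. Ctsg had 0.04, 0.32, -0.05 and 0.13 in Hyp bone, against -0.10, -0.01, 0.01 and -0.03 in WT bone. Hyp replicate 2 was the highest array for both and Hyp replicate 3 lay among the WT arrays, so the genotypes overlapped. Elane had -0.10, 0.02, -0.12 and -0.01 in Hyp bone, against 0.01, -0.01, 0.04 and 0.02 in WT bone. Its difference of -0.07 ± 0.05 (SE, adjusted p = 0.407) was below 0, where those of the other primary granule genes were above 0. Prtn3, whose gene lies next to Elane on chromosome 10, differed by 0.10 ± 0.08 (adjusted p = 0.461), with a range of -0.04 to 0.29 on the Hyp arrays and of -0.10 to 0.06 on the WT arrays.

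Hyp replicate 2 was the highest Hyp array and Hyp replicate 3 the lowest for 4 of 4 of these genes. WT replicate 3 was the highest WT array for 4 of 4, while the lowest WT array differed between the genes. The mean of the 4 genes was 0.05 ± 0.12 (SD, n = 4) in Hyp bone and -0.01 ± 0.04 in WT bone, so the spread within Hyp was larger than the difference of 0.07. Hyp replicate 2 and WT replicate 3 are also the arrays with the lowest and the highest mean of skeletal muscle genes, and the part of that in these values was not tested.

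The 250 bases before the start of each gene (RefSeq, GRCm38.p6) are shown to set the primary granule genes beside the secondary granule genes and the genes that rose. Promoters were held for 27 of the 30 genes. Capitals mark matches, on either strand, to 3 letter patterns: TTNNGNAA for C/EBP factors, GAGGAA for PU.1 and TGTGGT for RUNX factors, and no match of 1 pattern overlapped a match of another. Of all 32851 windows of this length 36.8% held the C/EBP pattern, 23.3% the PU.1 pattern and 14.0% the RUNX pattern. Of the 29 member windows (2 genes have 2 starts) 16 held the C/EBP pattern, 16 the PU.1 pattern and 2 the RUNX pattern. The 2 windows of Ly6g overlap and share their PU.1 matches, so the same sites count for both windows. Windows of Fpr1, Ly6g and Retnlg, which were not measured, are included. A match describes letters and is not evidence of binding. The windows printed were chosen after the values were seen. The windows of the primary granule genes are those of Elane at chr10:79886062-79886311 (plus strand), Mpo at chr11:87793534-87793783 (plus strand), Prtn3 at chr10:79879417-79879666 (plus strand) and Ctsg at chr14:56102575-56102824 (minus strand). Each of the 4 held the PU.1 pattern, 1 held the RUNX pattern (Ctsg, as ACCACA) and 0 held the C/EBP pattern.
Elane: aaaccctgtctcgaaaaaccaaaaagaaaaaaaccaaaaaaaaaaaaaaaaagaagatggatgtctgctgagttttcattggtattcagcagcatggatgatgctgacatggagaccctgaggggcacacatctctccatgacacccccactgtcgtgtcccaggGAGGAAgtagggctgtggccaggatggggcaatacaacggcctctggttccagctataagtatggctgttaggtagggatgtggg
Mpo: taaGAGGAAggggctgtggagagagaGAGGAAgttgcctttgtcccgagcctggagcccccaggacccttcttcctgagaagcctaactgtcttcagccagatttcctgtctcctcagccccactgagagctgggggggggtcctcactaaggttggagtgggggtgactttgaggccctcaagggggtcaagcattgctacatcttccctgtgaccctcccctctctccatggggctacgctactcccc
Prtn3: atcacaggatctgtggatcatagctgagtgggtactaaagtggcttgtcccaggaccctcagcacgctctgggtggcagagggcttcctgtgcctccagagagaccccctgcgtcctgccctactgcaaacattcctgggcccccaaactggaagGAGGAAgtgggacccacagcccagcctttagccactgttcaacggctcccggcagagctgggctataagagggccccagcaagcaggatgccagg
Ctsg: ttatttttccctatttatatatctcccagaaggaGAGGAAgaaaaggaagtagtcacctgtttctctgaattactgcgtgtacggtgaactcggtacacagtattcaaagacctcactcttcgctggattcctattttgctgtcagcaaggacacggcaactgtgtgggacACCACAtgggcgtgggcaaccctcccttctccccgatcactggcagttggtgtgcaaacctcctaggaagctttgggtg

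Among the secondary granule genes, Hp rose and the other 7 did not pass the test. The 8 genes had a median difference of 0.10, and 7 of the 8 differences were above 0. Hp encodes haptoglobin, which binds free haemoglobin and is also made by liver and fat. It had 0.23, 0.04, 0.15 and 0.43 on Hyp replicates 1 to 4, against -0.18, -0.04, -0.05 and -0.06 on the WT replicates. The genotypes did not overlap, though Hyp replicate 2 lay close to the WT arrays and Hyp replicate 4 well above the others. The difference was 0.29 ± 0.08 (SE, adjusted p = 0.0353), a 1.22-fold increase. This call was lost with any 1 of 6 arrays left out (Hyp replicates 1, 3 and 4 and WT replicates 1, 2 and 4; adjusted p from 0.0559 to 0.108) and with quantile normalization (adjusted p = 0.0559) or the probe set of the largest SD per gene (adjusted p = 0.0594).

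Mmp8 (neutrophil collagenase, which cleaves fibrillar collagen) had 0.04, 5e-04, 0.05 and 0.38 in Hyp bone, against -0.36, -0.26, -0.01 and -5e-04 in WT bone. The genotypes touched without overlapping, and the spread within each was wide. Its difference of 0.28 ± 0.10 did not pass (adjusted p = 0.118).

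The best-known secondary granule products showed smaller differences. Camp encodes the cathelicidin antimicrobial peptide, Ltf the iron-binding lactoferrin, Ngp neutrophilic granule protein, a relative of cathelicidin in mouse, and Lcn2 the siderophore-binding lipocalin 2. Camp had 0.01, -0.01, -0.05 and 0.09 in Hyp bone, against -0.31, -0.05, 0.02 and 0.02 in WT bone. For Ltf the values were 0.10, -3e-04, -0.12 and 0.05 in Hyp bone, against -0.28, -0.02, 0.02 and 3e-04 in WT bone. Both pairs of groups overlapped, and WT replicate 1 lay below all other arrays. Ngp differed by 0.11 ± 0.06 (adjusted p = 0.268) and Lcn2 by 0.13 ± 0.09 (adjusted p = 0.382), with Camp at 0.09 ± 0.08 and Ltf at 0.08 ± 0.08. The upper 95% limits for these 4 genes lay between 0.24 (Ngp) and 0.31 (Lcn2). Chil3, a chitinase-like protein of mouse myeloid cells, and Cd177, a surface glycoprotein that binds proteinase 3 in human neutrophils, differed by -0.02 ± 0.09 and 0.02 ± 0.09. A further probe set is annotated to both Chil3 and Chil4 and was not used.

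WT replicate 1 was the lowest WT array for 8 of 8 secondary granule genes, and Hyp replicate 4 the highest Hyp array for 7 of 8. The highest Hyp array thus differed from that of the primary granule genes, where it was Hyp replicate 2. Other parts of the order were shared. Hyp replicate 3 was the lowest Hyp array for 5 of 8 secondary and 4 of 4 primary granule genes. WT replicate 3 was the highest WT array for 5 of 8 and 4 of 4. The mean over the 8 genes was 0.05 ± 0.09 (SD, n = 4) in Hyp bone and -0.08 ± 0.14 in WT bone, with WT replicate 1 at -0.26 and the other WT arrays between -0.11 and 0.05. WT replicate 1 was also the lowest of all arrays for the means of the erythroid (-0.37) and endothelial (-0.35) marker lists, and the part of that in these values was not tested.

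Of the 7 secondary granule genes with a promoter window, 6 held the C/EBP pattern and 4 the PU.1 pattern. Shown, because they hold the C/EBP pattern at more than 1 place, as that of Chil3 does too, are the windows of Ltf at chr9:111019042-111019291 (plus strand), Ngp at chr9:110419558-110419807 (plus strand) and Mmp8 at chr9:7558179-7558428 (plus strand).
Ltf: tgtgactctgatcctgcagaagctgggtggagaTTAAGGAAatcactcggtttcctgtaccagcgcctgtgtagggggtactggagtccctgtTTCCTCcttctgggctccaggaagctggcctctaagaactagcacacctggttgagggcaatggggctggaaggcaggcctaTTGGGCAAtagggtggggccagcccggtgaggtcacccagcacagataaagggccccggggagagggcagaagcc
Ngp: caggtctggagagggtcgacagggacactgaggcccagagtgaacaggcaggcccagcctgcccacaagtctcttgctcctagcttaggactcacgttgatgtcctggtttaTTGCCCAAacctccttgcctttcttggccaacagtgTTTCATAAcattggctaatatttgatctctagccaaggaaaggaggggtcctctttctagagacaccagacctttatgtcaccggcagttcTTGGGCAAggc
Mmp8: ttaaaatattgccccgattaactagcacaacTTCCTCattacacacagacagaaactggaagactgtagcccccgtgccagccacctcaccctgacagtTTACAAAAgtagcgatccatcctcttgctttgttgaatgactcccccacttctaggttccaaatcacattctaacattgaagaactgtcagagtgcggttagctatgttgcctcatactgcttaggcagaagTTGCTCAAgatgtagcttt

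Of the tertiary granule genes, Pglyrp1 encodes a peptidoglycan recognition protein that binds bacterial cell walls, and Anxa1 encodes annexin A1, a phospholipid-binding protein that many other cells make too. Neither passed the test. Pglyrp1 had 0.22, 0.14, -0.04 and 0.29 in Hyp bone, against -0.18, 0.01, -0.10 and -0.01 in WT bone. Hyp replicate 3 lay within the WT range and the other 3 Hyp arrays above it. Its difference was 0.22 ± 0.07 (SE, adjusted p = 0.0816), and it passed without Hyp replicate 3 (0.28, adjusted p = 0.0265). Anxa1 differed by 0.06 ± 0.07 (adjusted p = 0.674) as the mean of its probe sets, which lay at 0.01 and 0.10.

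The cytosolic S100 genes, which encode the subunits of calprotectin, had differences near 0 and small spreads. S100a8 had 0.03, 0.02, -0.05 and 0.05 in Hyp bone, against -0.10, -0.0036, -0.0047 and 0.0036 in WT bone. S100a9 ranged from -0.0069 to 0.08 in Hyp bone and from -0.10 to 0.04 in WT bone. The differences were 0.04 ± 0.05 and 0.02 ± 0.05 (adjusted p = 0.665 and 0.807), and their 95% intervals left room for increases of up to 0.14 on the log2 scale. Calprotectin binds metal ions and is abundant in the cytosol of neutrophils.

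Taking granule and S100 genes as 1 group, 1 of 16 was called higher (6.25%, beside 6.54% of all genes), with a median difference of 0.09. Of the 10 other measured members 5 were called higher, with a median of 0.22. The split between these groups was not tested. The signal level of a probe set, and whether it was near the top of the scanner's range, cannot be read from centred values.

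**Figure D2:**
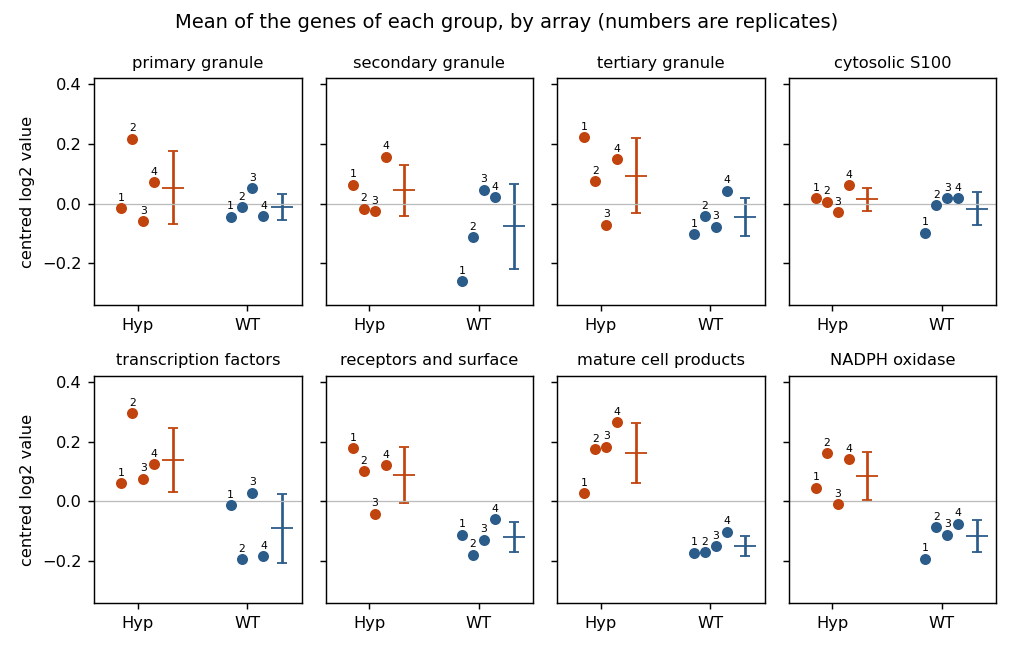
Mean centred log2 value (vertical axis) over the measured genes of each role on each array, with Hyp left of WT; numbers are replicates and bars show the mean ± SD of 4 arrays. The granule and S100 groups overlap between genotypes. Hyp replicate 2 lies at 0.22 for the primary group and WT replicate 1 at -0.26 for the secondary group. The mature cell products, both called higher, lie at 0.03 to 0.26 in Hyp and at -0.17 to -0.10 in WT. The means of the transcription factors, receptors and oxidase genes do not overlap either, with smaller gaps. Taken singly, only Cebpa, Csf3r and Cyba of these groups were apart, while Gfi1, Cxcr2, Fpr2, Ncf1 and Ncf4 overlapped. Every Hyp array lay above every WT array in 10.3% of all genes.

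Of the transcription factors, Cebpa rose and Gfi1 did not pass. Cebpa encodes C/EBPα, which directs progenitors to the granulocyte and monocyte lineages and also acts in fat and liver cells. It had 0.17, 0.36, 0.11 and 0.40 on Hyp replicates 1 to 4, against -0.32, -0.18, -0.11 and -0.15 on WT replicates 1 to 4. Each Hyp array lay above each WT array, the nearest being Hyp replicate 3 and WT replicate 3. Where genotypes do not overlap, the centring puts the nearest arrays at equal distances on either side of 0. The difference was 0.45 ± 0.08 (SE, adjusted p = 0.00365), 1.36-fold with a 95% interval of 1.21 to 1.53. It passed under all 20 alternative settings, with differences between 0.40 and 0.50. Gfi1, a repressor needed for neutrophil differentiation, had -0.05, 0.23, 0.05 and -0.15 in Hyp bone, against 0.30, -0.21, 0.17 and -0.21 in WT bone. The arrays of both genotypes were scattered over the same range, and the difference of 0.01 ± 0.12 (adjusted p = 0.971) had an interval of -0.26 to 0.28.

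Receptor genes were represented by Csf3r, Cxcr2 and Fpr2, of which Csf3r rose. Csf3r encodes the receptor of granulocyte colony-stimulating factor, found on neutrophils, their precursors and monocytes. It had 0.26, 0.21, 0.03 and 0.22 in Hyp bone, against -0.10, -0.23, -0.11 and -0.03 in WT bone. The genotypes did not overlap, with Hyp replicate 3 nearest to WT. The increase was 0.29 ± 0.06 (adjusted p = 0.0143), 1.23-fold. It passed without any single array, but not without both Hyp replicate 2 and WT replicate 3 (0.29, adjusted p = 0.0524). Cxcr2, the receptor through which neutrophils leave the marrow toward CXC chemokines, had the range -0.17 to 0.27 in Hyp bone and -0.42 to 0.14 in WT bone (0.16 ± 0.12, adjusted p = 0.432). Fpr2, a formyl peptide receptor that senses bacterial peptides, lay between -0.01 and 0.10 in Hyp bone and between -0.37 and 0.14 in WT bone (0.17 ± 0.10, adjusted p = 0.275). WT replicate 3 was the array that overlapped Hyp for Fpr2, and without it the difference was 0.27 (adjusted p = 0.0294).

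Both measured products of mature cells, Padi4 and Il1b, rose. Padi4 encodes a deiminase that converts arginine in histones to citrulline, a step in the release of neutrophil extracellular traps. It had 0.02, 0.20, 0.16 and 0.32 in Hyp bone, against -0.16, -0.30, -0.02 and -0.13 in WT bone. Il1b, the inflammatory cytokine made by neutrophils, monocytes and macrophages, had 0.04, 0.15, 0.21 and 0.21 in Hyp bone, against -0.18, -0.04, -0.28 and -0.07 in WT bone. In both genes Hyp replicate 1 was the Hyp array nearest to WT and no arrays overlapped. Padi4 increased by 0.33 ± 0.08 (adjusted p = 0.0196; 1.25-fold) and Il1b by 0.29 ± 0.07 (adjusted p = 0.0165; 1.23-fold). Padi4 no longer passed when Hyp replicate 2, Hyp replicate 4 or WT replicate 1 was left out (adjusted p from 0.0515 to 0.0555), and Il1b without WT replicate 1 (adjusted p = 0.0544) and without both Hyp replicate 2 and WT replicate 3 (adjusted p = 0.0543).

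Of the oxidase subunits Cyba rose, and Ncf1 and Ncf4 lay above 0 without passing. Cyba encodes p22phox, the membrane subunit that stabilises the catalytic one, and is used in many cell types, while Ncf1 (p47phox) and Ncf4 (p40phox) are cytosolic activators found mainly in phagocytes. Cyba had 0.10, 0.17, 0.01 and 0.14 in Hyp bone, against -0.21, -0.09, -0.18 and -0.01 in WT bone. The genotypes did not overlap, but Hyp replicate 3 and WT replicate 4 lay close together. The increase was 0.23 ± 0.06 (adjusted p = 0.0315; 1.17-fold), and it missed the threshold without any 1 of 6 arrays (Hyp replicates 1, 2 and 4 and WT replicates 1, 2 and 3; adjusted p from 0.0518 to 0.1) or without both Hyp replicate 2 and WT replicate 3 (adjusted p = 0.123). The call was also lost among genes with an SD above the median (adjusted p = 0.0537) and with the probe set of the largest SD per gene (adjusted p = 0.0683). Ncf4 had 0.01, 0.22, -0.01 and 0.10 in Hyp bone, against -0.23, -0.15, 0.01 and -0.18 in WT bone. WT replicate 3 alone reached into the Hyp range. The difference of 0.22 ± 0.07 did not pass (adjusted p = 0.0615), and it did without WT replicate 3 (0.27, adjusted p = 0.0216). The 3 probe sets of Ncf1 lay at 0.08, 0.15 and 0.23 and none passed on its own, with a gene mean of 0.15 ± 0.06 (adjusted p = 0.136).

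**Figure D3:**
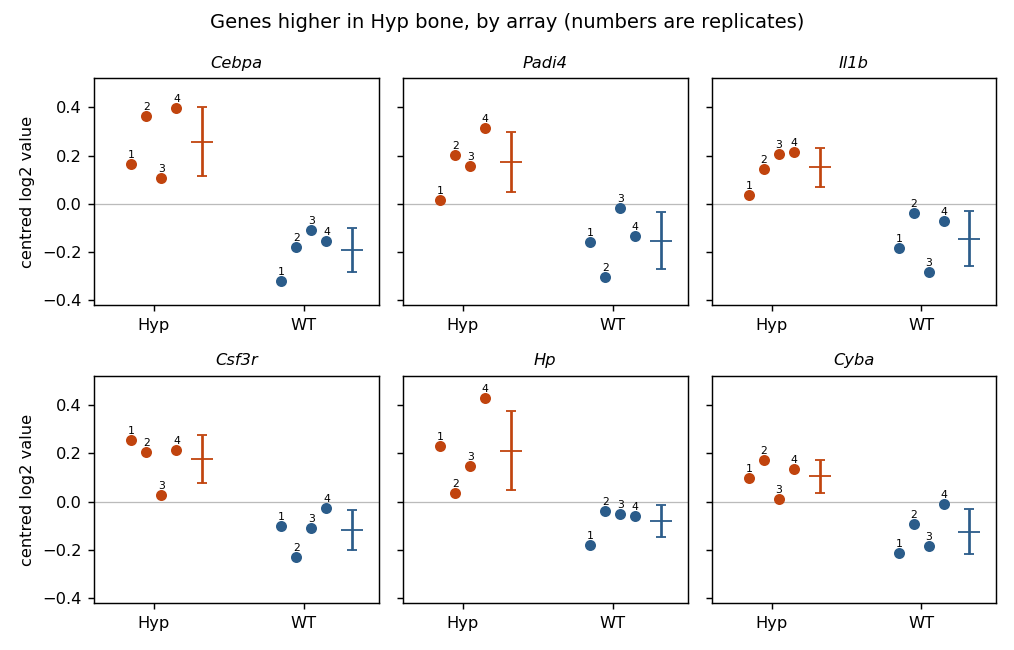
Centred log2 values (vertical axis) of the 6 genes called higher in Hyp on each array, Hyp left of WT, with replicate numbers and the mean ± SD of 4 arrays. In each panel the lowest Hyp array lies above the highest WT array, nearest in Cyba (0.01 in Hyp and -0.01 in WT) and furthest in Cebpa (0.11 in Hyp and -0.11 in WT).

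The windows of 3 of the genes that rose are shown for comparison with those of the granule genes: Cebpa at chr7:35119043-35119292 (plus strand), Csf3r at chr4:126024409-126024658 (plus strand) and Il1b at chr2:129371140-129371389 (minus strand). The window of Csf3r held the PU.1 pattern and that of Il1b the C/EBP pattern, while that of Cebpa held 0 matches. The windows of Padi4 and Cyba held 0 matches too.
Cebpa: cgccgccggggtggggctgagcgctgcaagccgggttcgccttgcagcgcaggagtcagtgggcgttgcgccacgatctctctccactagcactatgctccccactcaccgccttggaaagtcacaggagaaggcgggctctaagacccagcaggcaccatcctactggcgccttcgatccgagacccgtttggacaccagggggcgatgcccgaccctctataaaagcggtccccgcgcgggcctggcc
Csf3r: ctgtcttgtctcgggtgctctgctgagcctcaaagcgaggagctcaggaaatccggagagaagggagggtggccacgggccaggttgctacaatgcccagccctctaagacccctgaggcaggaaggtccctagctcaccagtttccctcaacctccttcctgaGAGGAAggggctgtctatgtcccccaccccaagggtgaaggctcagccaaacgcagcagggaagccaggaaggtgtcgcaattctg
Il1b: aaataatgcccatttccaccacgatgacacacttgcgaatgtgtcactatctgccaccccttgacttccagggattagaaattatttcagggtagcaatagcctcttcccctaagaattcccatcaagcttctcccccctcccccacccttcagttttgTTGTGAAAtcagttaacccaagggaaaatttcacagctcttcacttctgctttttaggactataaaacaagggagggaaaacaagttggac

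Other genes of neutrophil biology were read from 6 lists, of which 74 measured genes were not members. Of these 23 were higher and 2 lower (15 and 2 without WT replicate 1; 19 to 25 and 2 to 3 without any other single array). Of 13 other granule genes 3 rose: Adam8, a surface protease of granule membranes, by 0.85 ± 0.13 (SE, adjusted p = 0.00175), Arg1 (arginase 1) by 0.32 ± 0.07 and Lyz2 (lysozyme) by 0.25 ± 0.06. Adam8, Arg1 and Lyz2 are all also made by macrophages. Of 19 receptors and signalling genes 7 rose, among them Fcgr3, an Fc receptor, by 0.61 ± 0.07, Clec4d and Clec4e, C-type lectin receptors, by 0.76 ± 0.15 and 0.38 ± 0.09, Alox5ap and Alox5 of leukotriene synthesis by 0.39 ± 0.07 and 0.31 ± 0.07, and Itgb2, the β chain of leukocyte integrins, by 0.25 ± 0.05. The count of 7 became 5 without Hyp replicate 3 or 4 or WT replicate 1 or 2, and lay between 6 and 8 without another single array. With median centring, quantile or cyclic loess normalization the count was 6. Of 4 further genes of killing, Slc11a1, a metal transporter of phagosomes, rose by 0.60 ± 0.09 and Hvcn1, a proton channel, by 0.24 ± 0.06. Cybb, the catalytic oxidase subunit, lay at 0.18 ± 0.08 (adjusted p = 0.162) and Rac2 at 0.17 ± 0.05 (adjusted p = 0.0549), both named after their values were seen. With the 3 oxidase members included, 3 of 7 genes of this list rose, 1 without Hyp replicate 1, 2 or 4 or WT replicate 1.

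Among 19 regulators of granulocyte formation 5 rose and 2 fell. Klf4, which favours monocytes, fell by 0.71 ± 0.07 and Id1 fell by 0.37 ± 0.08. Egr2 rose by 1.19 ± 0.15, and the remaining increases were in Gata1 (0.30 ± 0.07), Gata2 (0.27 ± 0.06), Klf5 (0.26 ± 0.06) and Gfi1b (0.35 ± 0.09, with overlapping genotypes, named after its values were seen). Without WT replicate 1 or WT replicate 4, 3 genes of this list were called higher. Gata1 and Gfi1b act in red cell and platelet precursors, and most of these regulators are active in cells outside the marrow too. Of 12 growth factors and chemokines, Kitl (stem cell factor) rose by 0.50 ± 0.08, Cxcl12, which retains neutrophils in marrow, by 0.31 ± 0.06 and Csf2 by 0.33 ± 0.08. The count of 3 became 2 without WT replicate 1 or 4, and 4 without Hyp replicate 1. Cxcl1, named after its values were seen, lay at -0.20 ± 0.06 (adjusted p = 0.0604), with every Hyp array below every WT array. With median centring, quantile or cyclic loess normalization, or without WT replicate 3, 1 gene of this list was called lower. Of 7 genes of early myeloid progenitors, Cd33, Cd34 and Csf2ra rose by 0.37 ± 0.06, 0.30 ± 0.07 and 0.30 ± 0.07. Ms4a3, a marker of granulocyte and monocyte progenitors named after its values were seen, lay at 0.15 ± 0.06 (adjusted p = 0.155).

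Markers of other marrow cells moved on the same arrays. Of 15 monocyte and macrophage markers 10 rose, with a median difference of 0.76. Their mean lay between 0.16 and 0.37 on the Hyp arrays and between -0.34 and -0.22 on the WT arrays. F13a1 at 1.08 ± 0.08 and Adgre1 at 0.94 ± 0.08 had the smallest p of this list. Mast cell markers rose in 6 of 8 (4 of 8 without WT replicate 1; Cma1 at 1.54 ± 0.19, Mcpt4 at 0.80 ± 0.11), with list means of 0.15 to 0.64 in Hyp bone and of -0.30 to -0.21 in WT bone. Eosinophil and basophil markers rose in 4 of 6, and in 3 of 6 without Hyp replicate 2 or WT replicate 4. Epx lay at 0.95 ± 0.08 and Prg2 at 0.66 ± 0.08, with list means of 0.0039 to 0.47 in Hyp bone and of -0.32 to -0.15 in WT bone. Erythroid markers rose in 7 of 9, and in 5 of 9 without Hyp replicate 3 or WT replicate 1. Alas2 lay at 0.48 ± 0.07 and Klf1 at 0.49 ± 0.07, with list means of 0.04 to 0.18 in Hyp bone and of -0.37 to -0.13 in WT bone. Endothelial markers rose in 10 of 10, and in 8 of 10 without Hyp replicate 3. Plvap lay at 0.59 ± 0.06, with list means of 0.13 to 0.26 in Hyp bone and of -0.35 to -0.18 in WT bone. T and NK cell markers rose in 3 of 8 (1 with WT replicate 4 or either replicate 1 left out, and 1 with median centring, quantile or cyclic loess normalization) and proliferation genes in 4 of 9 (2 without Hyp replicate 3 or WT replicates 1, 2 or 4, and 2 with cyclic loess normalization). Osteoblast markers fell in 6 of 7, with list means of -0.55 to -0.28 in Hyp bone and of 0.31 to 0.45 in WT bone. B lineage markers fell in 3 of 9 (1 without Hyp replicate 1 or WT replicate 1) and osteoclast markers in 1 of 8 (0 without Hyp replicate 2, 3 or 4 or WT replicate 1), while 0 of 5 megakaryocyte markers and 0 of 9 stress genes passed (limma; 1 and 0 at an unadjusted p under 0.05). Cebpa, Csf3r, Il1b, Cyba, Hp and Padi4 are also expressed by cells other than neutrophils, monocytes among them for several, and the part of these other cells in the increases was not tested.

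**Figure D4:**
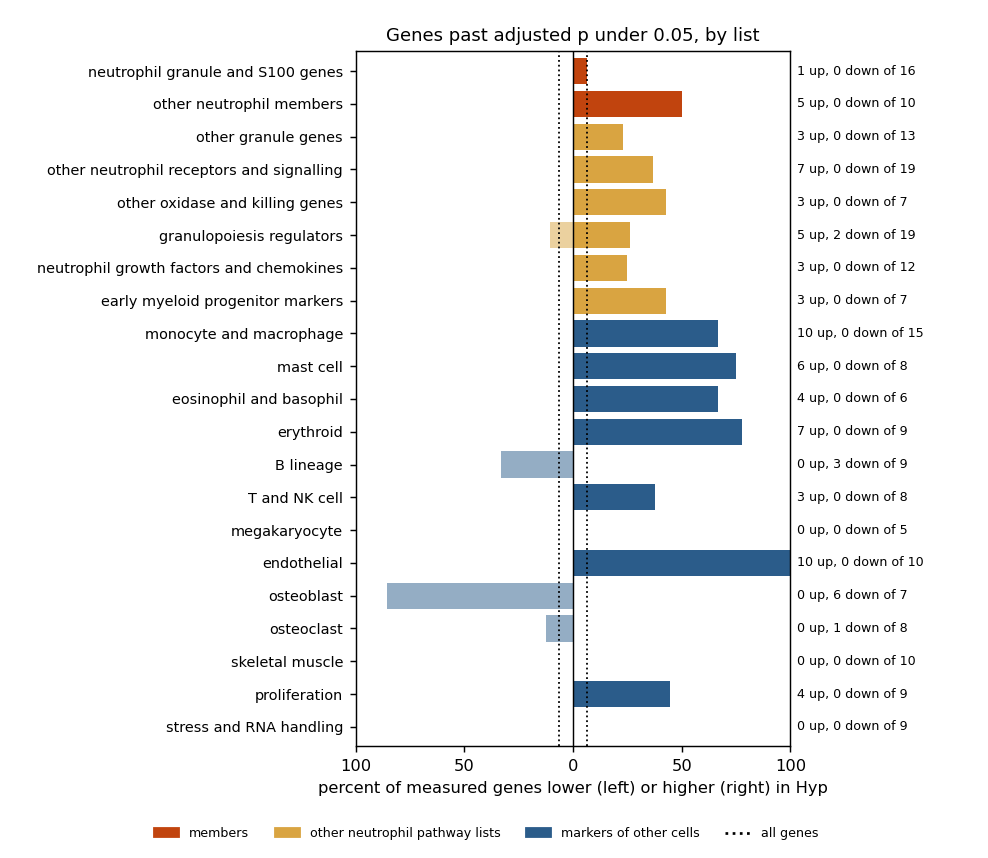
Percent of the measured genes of each list that were called higher (bars to the right) or lower (bars to the left) in Hyp, with all genes as dotted lines at 6.54% and 6.32%. The granule and S100 genes stand at 1 of 16, the other members at 5 of 10 and the monocyte and macrophage markers at 10 of 15.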

How the data were processed

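Long bone RNA of Hyp and WT mice was measured on 8 arrays, 4 per genotype, grouped by their titles. The authors deposited log2 values, for which the submitters' processing notes name RMA; its version is not given in the sources used here. For each probe set the median of the 8 values was 0 within 5e-07, and no label mentions this centring. Base 2 was assumed for the logarithm: the widest probe set covered 8.92 units. Of 45101 rows 64 controls were left out. The platform annotation gave 1 symbol for 34945 probe sets, several for 932 and none here for 9160, and symbols were updated by gene identifier in a RefSeq table (GRCm38.p6), used for names only. Probe sets of a gene were averaged, and Hyp was compared with WT over 18193 genes in limma 3.58.1 (R 4.3.3; lmFit, eBayes, two-sided, without covariates). Benjamini-Hochberg adjustment ran over all genes, at a threshold of 0.05. No filter on level was possible. Differences are Hyp minus WT, errors marked SE are from the fit and SD is between arrays. Precision is limited by the number of arrays: the SE of a gene's difference had a median of 0.065.

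The members and lists were chosen with earlier results of these data known. The text names all members, in the other lists the genes past the threshold (at most 6 with the smallest p), and up to 2 genes per marker list. Other settings tried were a replicate block, normalization, array weights, a robust prior, thresholds, an SD filter, choice of probe sets and leaving out arrays. The code of the fit was checked on simulated independent noise, for recovery of added differences of 2 and a limit on false calls. Recovery of differences as small as those of the members is not reported here.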

Additional observations from a re-analysis of the deposited data

Results flagged for a closer look

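In 7 of 78 groups of 4 arrays (the members and the list means of other cells, each genotype apart), a single array lay further from the other 3 than Dixon's 95% criterion allows, which chance does in about 1 of 20 groups. WT replicate 1 was low for Ltf (-0.28, the others -0.02 to 0.02), Hp (-0.18, the others -0.06 to -0.04) and S100a8 (-0.097, the others -0.0047 to 0.0036), and for the endothelial list mean (-0.35, the others -0.21 to -0.18). Hyp replicate 4 was high for Mmp8 (0.38, the others 5e-04 to 0.05) and S100a9 (0.075, the others -0.0069 to 0.0056). Hyp replicate 3 was low for the osteoclast list mean (-0.11, the others -0.03).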

How the results depend on the processing

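Of 510 results of single members under the alternatives, 455 kept their direction and side of the threshold, 29 lost a call, 9 gained one and 17 changed sign. Cebpa passed under all 20. The members called higher numbered 6, 1 at an adjusted p under 0.01 (Cebpa), and between 2 and 7 without 1 array; none was called lower in limma under any alternative. The granule and S100 genes called numbered 1, 0 with quantile normalization, with the probe set of the largest SD and at 0.01, 2 at 0.1, and 0 to 1 without 1 array. Sign changes were limited to genes near 0: Cd177 lay at -0.0062 with cyclic loess, Chil3 at 0.013 with array weights and 0.088 without both Hyp replicate 2 and WT replicate 3, and Gfi1 at -0.0017 with median centring, -0.0024 with cyclic loess and -0.0079 without both arrays. Without 1 array or without both of these the ranges were -0.0067 to 0.10 for Anxa1, -0.053 to 0.085 for Cd177, -0.095 to 0.088 for Chil3, -0.064 to 0.10 for Gfi1 and -0.0062 to 0.049 for S100a9. Over all genes, 1190 were higher (1891 at 0.1, 407 at 0.01, 605 to 1437 without 1 array) and 1150 lower (618 at 0.01, 805 to 1153 without 1 array). Over all probe sets, 1452 were higher (2206 with array weights, 2714 at 0.1, 458 at 0.01, 965 with the SD filter, 625 to 2125 without 1 array) and 1760 lower (844 at 0.01, 1055 to 1975 without 1 array). The cause of these shifts was not tested. Same-numbered Hyp and WT arrays deviated together with correlations of -0.01, 0.061, 0.18 and 0.08 over genes. For arrays of different numbers the correlations ran from -0.201 to 0.222. Whether same-numbered arrays were handled together cannot be told from these values. The replicate block gave 1015 higher and 1063 lower genes and 6 higher members, with Mmp8 (adjusted p = 0.0433) in and Hp (adjusted p = 0.05) out. It changed the call of no other measured member. A filter on signal level and a mean-variance trend were not run, since centred values hold no level.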
